A study of Mus musculus with 8 samples.

Results

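The clustered histone genes encode the linker histone H1 and the core histones H2A, H2B, H3 and H4 that package DNA. Mouse genes whose symbols start with Hist1h, Hist2h, Hist3h or Hist4h were taken, pseudogenes were left out, and a gene was kept if it had 10 or more expected counts in 2 or more of the 8 libraries. This gave 13 genes of 67 clustered histone genes, out of 55416 gene IDs in the whole table. The 13 were 3 of 6 H1 genes (Hist1h1c, Hist1h1d and Hist1h1e), 4 of 18 H2A genes (Hist1h2af, Hist1h2ao, Hist2h2aa2 and Hist3h2a), 5 of 18 H2B genes (Hist1h2bc, Hist1h2be, Hist1h2bq, Hist1h2br and Hist2h2be), 0 of 12 H3 genes and 1 of 13 H4 genes (Hist1h4i). These genes were chosen by their measured counts, so their presence in the libraries is not a result. All 13 also passed the filter on low counts and were tested.

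RNA came from small intestinal organoids, which are epithelial cultures grown from the intestines of C57BL/6 mice aged 4 to 8 weeks. The 4 groups of 2 libraries each were organoids irradiated with an X-ray dose of 6 Gy at day 4, their unirradiated controls at day 4, irradiated organoids at day 7 and controls at day 7. All groups, controls included, carried 2 homozygous transgenes, Rosa26-rtTA (Tg/Tg), in which the Rosa26 locus drives the rtTA activator, and Col1A1-TetO-OSKM (Tg/Tg), in which a doxycycline-responsive promoter at Col1A1 drives the reprogramming factors. The labels name no doxycycline treatment, do not say from when days were counted, and do not say whether the 2 libraries of a group came from separate mice or cultures, so p-values measure the spread between libraries only, which may be technical.

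Replication-dependent histone genes are active in S phase, when new DNA has to be packaged. Their mRNAs normally end not in a poly-A tail but in a short stem-loop, which the protein SLBP binds and behind which the U7 snRNP and its partners cut the transcript. Some of these genes also give polyadenylated transcripts that run past the stem-loop, and such transcripts are known from cells that have left the cell cycle. A library made from poly-A selected RNA, as here, therefore holds only part of the histone mRNA of a cell.

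Library totals ran from 7541764 to 16054269 expected counts (estimated read numbers, in which a read that fits several genes is shared among them), so 1 count was worth 0.0623 to 0.1326 CPM, where CPM is the count divided by the library total and scaled up to a common size. All 67 clustered histone genes together took 42.6 to 94.33 CPM, before edgeR's TMM scaling, a trimmed mean of log ratios between libraries, which all other CPM values carry. Epithelial markers were high in every library, with 11 of them summing to 4940 to 8600 CPM, while endothelial markers had 0 (Cdh5 and Kdr) to 142 (Egfl7) counts and immune markers up to 277 (Itgam), with Ptprc of leukocytes at 6, in all 8 libraries together. Mitochondrial transcripts took 27.6% of the counts in irradiated day 4 replicate 2, against 12.9% to 20.7% in the other 7 libraries. In bulk RNA, fewer cells of a type and less RNA per cell cannot be told apart.

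The stem-loop is shown first because it divides the transcript that normally carries no tail from the part that lies behind it. It was sought as GG, any 2 bases, CTTTT, any base, AG, any 2 bases and CC on the coding strand of the GENCODE M21 transcript models, which were used for names and models only. It was found in 8 of the 13 genes and in 35 of the 54 clustered histone genes that missed the count threshold. In each line the 16 bases of the stem-loop stand in capitals, with the flanking bases in lower case.
Hist1h1c: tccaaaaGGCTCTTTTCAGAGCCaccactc
Hist1h1d: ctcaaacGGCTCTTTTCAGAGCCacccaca
Hist1h1e: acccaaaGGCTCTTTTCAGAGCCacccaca
Hist1h2ao: aaaaaaaGGCTCTTTTCAGAGCCatccaca
Hist2h2aa2: ctaaaaaGGCTCTTTTCAGAGCCacccact
Hist3h2a: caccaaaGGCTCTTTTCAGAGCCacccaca
Hist1h2be: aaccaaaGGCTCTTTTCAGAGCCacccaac
Hist1h4i: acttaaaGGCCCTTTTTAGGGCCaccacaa

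The first 7 of these sites carry the same 16 letters, in H1, H2A and H2B genes alike, and that of Hist1h4i differs. The annotated transcripts go on for very different lengths behind the stem-loop. The models of Hist1h1c, Hist1h1d and Hist1h1e run on for 840, 4884 and 1153 bases, that of Hist3h2a for 1643 bases, that of Hist1h2be for 1861 bases and that of Hist1h4i for 330 bases. The models of the H2A genes Hist1h2ao and Hist2h2aa2 end 31 and 35 bases behind it. The models of Hist1h2af, Hist1h2bc, Hist1h2bq, Hist1h2br and Hist2h2be hold no match to these letters, which says only that the letters are not in the annotated model.

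The longest models of the 13 genes had a median length of 1930 bases, against 522 bases for the other 54 genes. A model longer than 600 bases was annotated for 10 of the 13 genes, against 21 of the 54. At least 300 bases behind the stem-loop were annotated for 6 of the 13 and for 12 of the 54, and a poly-A signal (AATAAA or ATTAAA) in the last 60 bases for 6 and 10. A longer transcript gathers more reads at the same number of molecules, so a count threshold by itself favours long models. Of the genes just inside the threshold, Hist1h1e, Hist1h2be and Hist1h2br reached 10 counts in exactly 2 libraries. Just outside it, the H3 gene Hist2h3c1 had 12.34 counts in irradiated day 7 replicate 1 and 0 in all others, while Hist4h4 reached at most 9 counts and Hist1h2ab at most 8.74.

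Reads could not always be assigned to 1 gene. All stretches of 50 bases in the model of Hist2h2aa2 also occur in other genes, among them Gm20634, its copy Hist2h2aa1 and the pseudogene Hist1h2al. The share was 93.5% for Hist1h2ao, whose closest copy is Hist1h2ap, and 79.7% for Hist1h2af. The longest models of Hist1h2bq and Hist1h2br share 97.3% and 88.5% of their stretches with other genes, mainly with each other. It was lower for Hist1h1c at 8.5%, Hist1h1d at 2.3%, Hist1h2be at 17.9%, Hist1h4i at 28.9%, Hist1h2bc at 30.1%, Hist3h2a at 31.5% and Hist1h1e at 32.0%, and 0 for Hist2h2be. The values of Hist1h2af, Hist1h2ao, Hist2h2aa2, Hist1h2bq and Hist1h2br are therefore uncertain as values of that gene alone, and Hist1h1e and Hist1h2be share part of their sequence with each other.

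At day 4, irradiated organoids had more transcripts of the H1 gene Hist1h1c and the H2B gene Hist1h2bc than control organoids and fewer of the H2A genes Hist1h2af and Hist1h2ao. Of the 13 genes, 5 were called higher and 2 lower at day 4, with edgeR's quasi-likelihood test and Benjamini-Hochberg adjusted p under 0.05 over 14063 genes. Of all tested genes 36.5% were called at this day, 20.0% higher and 16.5% lower. At day 7, 3 of the 13 were called higher and 2 lower, against 8.65% of all tested genes (4.7% higher and 3.95% lower). The count threshold shapes these counts. Hist1h1e and Hist1h2be reached 10 counts only in the irradiated day 4 libraries, Hist2h2aa2 only in the 4 irradiated ones and Hist1h2br only in irradiated replicate 1 of either day. Hist1h1d reached them in both irradiated day 4 libraries and in control day 7 replicate 1. These genes entered because they were high in irradiated libraries, so their own differences from the controls there are given as descriptions with no test. Nothing is read from the number of genes called higher. Of the 6 genes with 10 or more counts in all 8 libraries, Hist1h1c and Hist1h2bc were called higher and Hist1h2af and Hist1h2ao lower at both days, while Hist3h2a and Hist2h2be were not called at either.

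**Figure D1:**
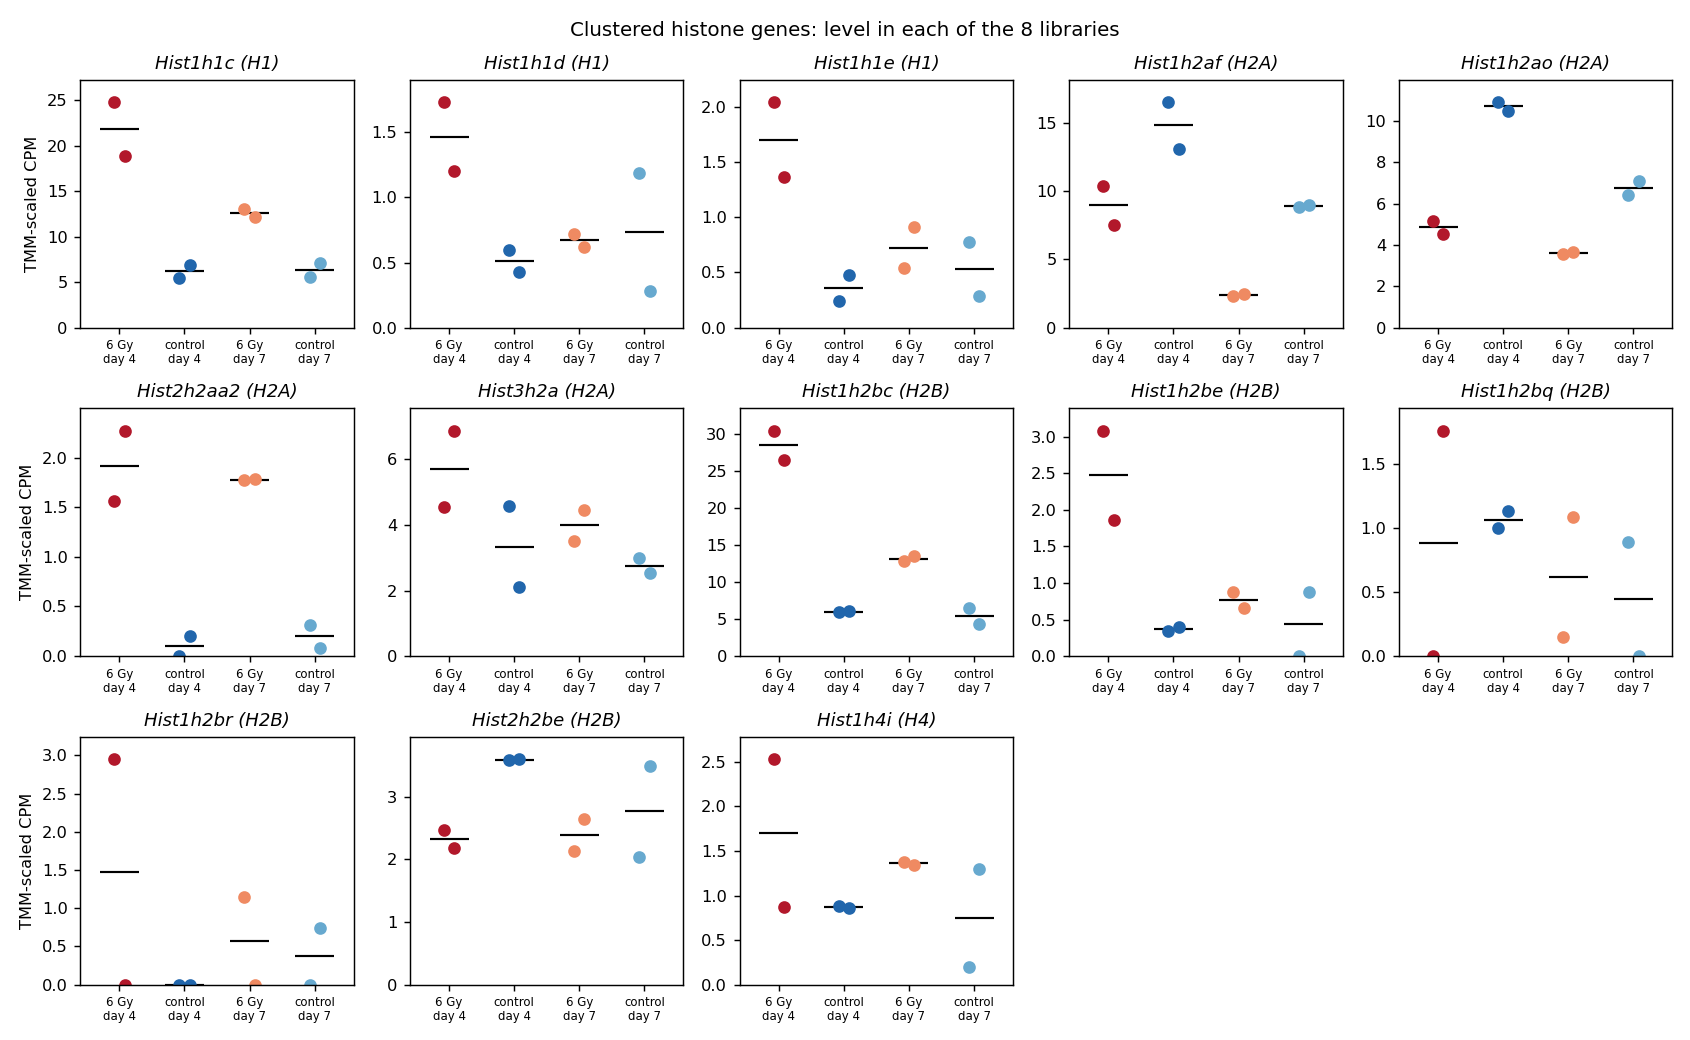
Level of each of the 13 clustered histone genes in TMM-scaled CPM (vertical axis, from 0, its own scale per panel) in the 2 libraries (points) and as their mean (line) of irradiated (6 Gy) and control organoids at day 4 and day 7. Hist1h1c and Hist1h2bc lie higher in irradiated than in control libraries at both days, and Hist1h2af and Hist1h2ao lie lower.

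H1 is the linker histone that binds where DNA enters and leaves the nucleosome, and Hist1h1c, Hist1h1d and Hist1h1e encode its somatic forms H1.2, H1.3 and H1.4. Hist1h1c (ENSMUSG00000036181) had 24.8 and 18.9 CPM in irradiated day 4 libraries, against 5.45 and 6.93 CPM in control day 4 libraries. At day 7 it had 13.1 and 12.2 CPM in irradiated organoids, against 5.56 and 7.16 CPM in control organoids. All irradiated libraries lay above all control libraries, and those of day 4 above those of day 7. The log2 fold change was 1.81 ± 0.2 (SE) at day 4 (edgeR adjusted p = 0.000109) and 0.98 ± 0.21 at day 7 (edgeR adjusted p = 0.0216). The day 7 call did not hold without any 1 of the 4 day 7 libraries, with an adjusted p of up to 0.199 (up to 0.268 over all alternatives tried).

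Hist1h1e (ENSMUSG00000051627) had 2.04 and 1.36 CPM in irradiated day 4 libraries, against 0.24 and 0.48 CPM in control day 4 libraries. These are 32 counts in both irradiated libraries together, against 11 in both control libraries. The irradiated day 4 counts admitted the gene, so this difference describes how it was chosen. On day 7 the values were 0.539 and 0.911 CPM in irradiated organoids, against 0.773 and 0.284 CPM in control organoids, and the groups overlapped.

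Hist1h1d (ENSMUSG00000052565) had 1.73 and 1.2 CPM in irradiated day 4 libraries, against 0.596 and 0.428 CPM in control day 4 libraries. It reached 10 counts in both of these irradiated libraries and otherwise only in control day 7 replicate 1. The irradiated day 4 counts thus admitted the gene, and no test of this difference is given. At day 7 its irradiated libraries (0.718 and 0.62 CPM) lay between its control libraries (1.19 and 0.278 CPM).

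H2A forms a dimer with H2B, and both sit on the outside of the histone octamer. The H2A genes did not move together. Hist1h2af (ENSMUSG00000061991) had 10.4 and 7.51 CPM in irradiated day 4 libraries, against 16.5 and 13.1 CPM in control day 4 libraries. The day 7 libraries had 2.31 and 2.46 CPM in irradiated organoids, against 8.85 and 9.0 CPM in control organoids. The irradiated libraries lay below the controls of the same day throughout, and the irradiated day 7 libraries were the lowest of all 8. The log2 fold change was -0.72 ± 0.2 at day 4 (edgeR adjusted p = 0.0186) and -1.9 ± 0.25 at day 7 (edgeR adjusted p = 0.00283). Its day 4 call was lost without irradiated replicate 2 or control replicate 1 of that day (adjusted p up to 0.105), and its day 7 call without irradiated day 7 replicate 2 (0.0504). The highest adjusted p over all alternatives was 0.105 at day 4 and 0.0763 at day 7.

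Hist1h2ao (ENSMUSG00000094248) had 5.17 and 4.52 CPM in irradiated day 4 libraries, against 10.9 and 10.5 CPM in control day 4 libraries. In day 7 libraries its level was 3.58 and 3.67 CPM in irradiated organoids, against 6.4 and 7.09 CPM in control organoids. The groups did not overlap at either day. The log2 fold change was -1.14 ± 0.19 at day 4 (edgeR adjusted p = 0.00141) and -0.91 ± 0.21 at day 7 (edgeR adjusted p = 0.0285), and the day 7 call was lost without any 1 of the 4 day 7 libraries (adjusted p up to 0.186), with DESeq2 (0.149) and with limma-voom (0.0525). Its adjusted p reached 0.272 over all alternatives.

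Since Hist1h2af and Hist1h2ao share most of their sequence with other H2A genes, their sum and that of all 13 Hist1h2a genes were set beside them. Both genes together had 15.6 and 12.0 CPM in irradiated and 27.4 and 23.6 CPM in control day 4 libraries. All 13 together had 16.2 and 13.5 CPM in irradiated and 27.6 and 24.5 CPM in control day 4 libraries. At day 7 all 13 had 6.63 and 7.84 CPM in irradiated and 15.3 and 16.8 CPM in control libraries. The sum over the copies was thus lower in the irradiated libraries of both days as well. The other 11 genes held 0 to 14.2 counts per library.

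Hist2h2aa2 (ENSMUSG00000063954), an H2A gene of the smaller cluster on chromosome 3, went the other way. It had 1.56 and 2.27 CPM in irradiated day 4 libraries, against 0 and 0.202 CPM in control day 4 libraries. At day 7 it had 1.77 and 1.78 CPM in irradiated organoids, against 0.315 and 0.0864 CPM in control organoids. These are 35 counts in irradiated and 3 in control libraries at day 4. At day 7 they are 32 counts in irradiated and 4 in control libraries. Since only its irradiated libraries reached the count threshold, these differences are a description at both days. The pseudogene Hist1h2al, which shares sequence with Hist2h2aa2, had 10.44 and 14.81 counts in irradiated day 4 libraries and 0 in both controls. At day 7 Hist1h2al had 9.11 and 8.21 counts in irradiated and 2.28 and 2.92 in control libraries. How reads were divided between these genes was not tested.

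Hist3h2a (ENSMUSG00000078851), on chromosome 11, had 4.55 and 6.87 CPM in irradiated day 4 libraries, against 4.57 and 2.11 CPM in control day 4 libraries. On day 7 the values were 3.52 and 4.45 CPM in irradiated organoids, against 2.98 and 2.53 CPM in control organoids. It was not called at day 4 (log2 fold change 0.78 ± 0.38, edgeR adjusted p = 0.132) or at day 7 (0.55 ± 0.41, adjusted p = 0.44).

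Among the H2B genes, Hist1h2bc (ENSMUSG00000018102) had the highest mean CPM of all 13 genes. It had 30.4 and 26.5 CPM in irradiated day 4 libraries, against 5.97 and 6.05 CPM in control day 4 libraries. The day 7 libraries had 12.8 and 13.5 CPM in irradiated organoids, against 6.47 and 4.38 CPM in control organoids. All 4 irradiated libraries lay above all 4 control libraries. The log2 fold change was 2.24 ± 0.18 at day 4 (edgeR adjusted p = 1.59e-05) and 1.28 ± 0.2 at day 7 (edgeR adjusted p = 0.00543). The day 7 call was lost without irradiated or control replicate 2 of that day (adjusted p up to 0.0716), and the adjusted p reached 0.11 over all alternatives.

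Hist1h2be (ENSMUSG00000047246) had 3.08 and 1.86 CPM in irradiated day 4 libraries, against 0.338 and 0.393 CPM in control day 4 libraries. These are 46 counts in irradiated and 10 in control libraries, and since it was the irradiated ones that met the count threshold, no test of this difference is given. In day 7 libraries its level was 0.883 and 0.653 CPM in irradiated organoids, against 0 and 0.874 CPM in control organoids, and the gene was not called (adjusted p = 0.715).

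Hist2h2be (ENSMUSG00000068854) encodes an H2B variant known in mice from olfactory neurons, and none of its 50-base stretches occurs in another gene. It had 2.47 and 2.18 CPM in irradiated day 4 libraries, against 3.58 and 3.6 CPM in control day 4 libraries. The groups did not overlap, but it was not called (log2 fold change -0.62 ± 0.34, edgeR adjusted p = 0.18). At day 7 it had 2.14 and 2.65 CPM in irradiated organoids, against 2.04 and 3.49 CPM in control organoids.

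Hist1h2bq (ENSMUSG00000069307) and Hist1h2br (ENSMUSG00000069303) are near-identical copies that cannot be read singly. Hist1h2bq had 0 and 1.76 CPM in irradiated day 4 libraries, where Hist1h2br had 2.95 and 0 CPM, so that in each of these libraries 1 of the copies held all the counts. In control day 4 libraries Hist1h2bq had 1.0 and 1.13 CPM and Hist1h2br was at 0 in both. Their sum was 2.95 and 1.76 CPM in irradiated and 1.0 and 1.13 CPM in control day 4 libraries. At day 7 the sum was 1.3 and 1.09 CPM in irradiated and 0.888 and 0.747 CPM in control libraries. The summed values did not overlap at either day, and no test was made of them. Neither gene was called alone in any of the 5 comparisons.

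H3 and H4 form the tetramer at the core of the nucleosome, and their clustered genes had few counts in these libraries. No H3 gene met the count threshold, and all 12 H3 genes together had 7.77 to 26.8 counts per library. Hist1h4i (ENSMUSG00000060639), the 1 H4 gene that met it, had 2.53 and 0.871 CPM in irradiated day 4 libraries, against 0.883 and 0.859 CPM in control day 4 libraries. On day 7 the values were 1.38 and 1.34 CPM in irradiated organoids, against 0.192 and 1.3 CPM in control organoids. It was not called at day 4 (log2 fold change 1.01 ± 0.69, edgeR adjusted p = 0.282) or at day 7 (0.82 ± 0.74, adjusted p = 0.533).

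**Figure D2:**
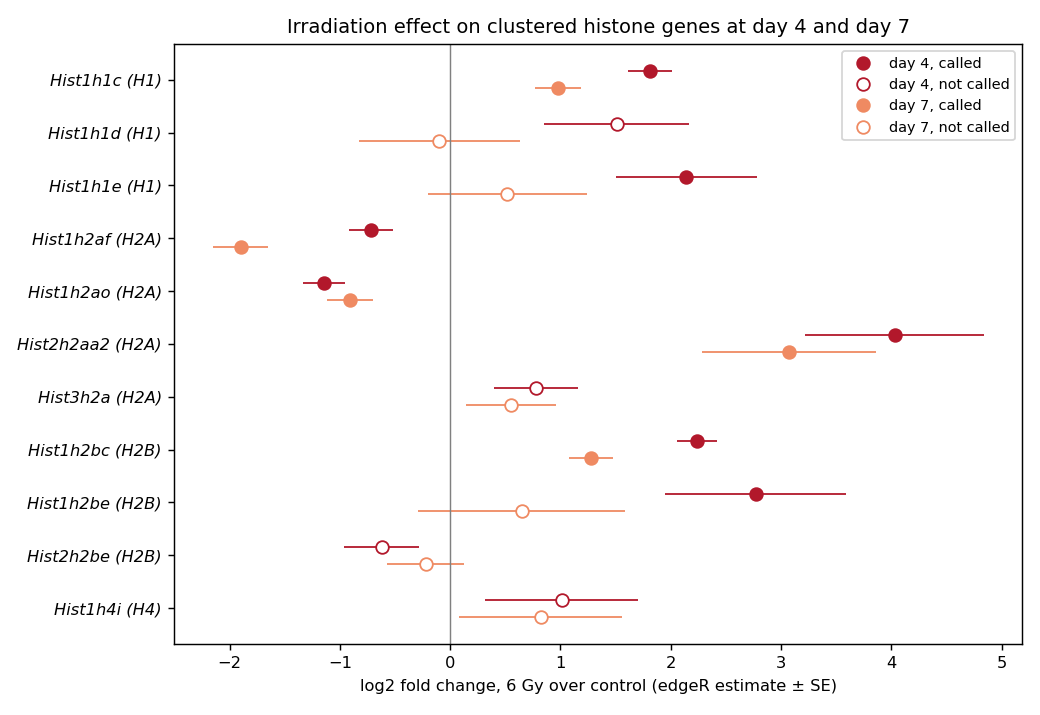
The log2 fold change of irradiated over control organoids at day 4 (dark red) and day 7 (orange) for 11 clustered histone genes, with the edgeR standard error as bars. Filled points were called at an adjusted p under 0.05, and Hist1h2bq and Hist1h2br are left out because their reads cannot be told apart. Hist1h1c and Hist1h2bc lie right of 0 at both days as called points, and Hist1h2af and Hist1h2ao left of 0. Points of Hist1h1d, Hist1h1e, Hist1h2be and Hist2h2aa2 describe genes admitted by their irradiated libraries.

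Summed over their members, H1 and H2B had higher levels in irradiated than in control organoids at both days, and H2A lower. The 3 H1 genes summed to 25.0 ± 4.99 CPM in irradiated and 7.07 ± 1.1 CPM in control organoids at day 4 (SD, n = 2 each), and to 14.0 ± 0.509 CPM in irradiated and 7.62 ± 0.147 CPM in control organoids at day 7. The 5 H2B genes summed to 35.6 ± 4.71 CPM in irradiated and 11.0 ± 0.198 CPM in control organoids at day 4, and to 17.5 ± 0.539 CPM in irradiated and 9.44 ± 0.0713 CPM in control organoids at day 7. The 4 H2A genes summed to 21.4 ± 0.391 CPM in irradiated and 29.0 ± 4.3 CPM in control organoids at day 4, and to 11.8 ± 0.83 CPM in irradiated and 18.6 ± 0.109 CPM in control organoids at day 7. No test was made of these sums. They and the sums of all 13 genes below include Hist1h1d, Hist1h1e, Hist1h2be, Hist1h2br and Hist2h2aa2, which entered by their irradiated libraries. The 6 genes with 10 or more counts in all 8 libraries gave the same directions at both days. For H1, where Hist1h1c alone remained, the day 4 means were 21.9 CPM in irradiated and 6.19 CPM in control organoids. For H2B they were 30.8 and 9.6 CPM, and for H2A 19.5 and 28.9 CPM.

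The make-up of the histone transcripts in the libraries differed accordingly. Hist1h2bc held 34.0% of the counts of the 13 genes in irradiated and 12.6% in control organoids at day 4, and Hist1h1c held 26.1% in irradiated and 13.3% in control organoids. Hist1h2af held 10.7% in irradiated and 30.5% in control organoids at that day, and Hist1h2ao 5.78% in irradiated and 22.4% in control organoids. The 13 genes held 90.2% of the counts of all 67 clustered histone genes.

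Whether the total was higher in irradiated organoids depends on the unit. All 13 genes summed to 83.8 ± 11.3 CPM in irradiated and 47.9 ± 3.02 CPM in control organoids at day 4, and to 44.7 ± 0.831 CPM in irradiated and 36.4 ± 1.11 CPM in control organoids at day 7. In the deposited TPM, a unit scaled by transcript length as well as by library size, the sums were 109.0 ± 33.1 TPM in irradiated and 114.0 ± 2.93 TPM in control organoids at day 4, and 70.8 ± 1.73 TPM in irradiated and 79.0 ± 3.53 TPM in control organoids at day 7. At day 4 TPM gave no direction. The irradiated libraries (132.0 and 85.6 TPM) lay on either side of the controls (116.0 and 112.0 TPM). Over all 67 clustered histone genes the day 7 sums were 91.1 ± 1.35 TPM in irradiated and 91.5 ± 0.488 TPM in control organoids. In TPM the short H2A genes weigh more than in CPM. Levels of different genes are therefore compared in TPM, here for the 4 genes that were called at both days and had 10 or more counts in all libraries (SD, n = 2). In irradiated organoids at day 4 Hist1h2af (32.1 ± 12.3 TPM) and Hist1h2bc (30.2 ± 7.73 TPM) did not differ beyond their spread, and Hist1h1c (17.0 ± 5.85 TPM) and Hist1h2ao (13.7 ± 3.46 TPM) did not either. In control organoids at day 4 Hist1h2af (59.4 ± 6.07 TPM) stood highest, followed by Hist1h2ao (34.5 ± 1.41 TPM). Hist1h2bc (7.28 ± 0.53 TPM) and Hist1h1c (5.48 ± 1.27 TPM) came next, and their difference was about the sum of their SDs. The places of Hist1h2af and Hist1h2ao are uncertain, since 79.7% and 93.5% of their stretches of 50 bases occur in other genes. Their TPM also rests on short models of 399 and 480 bases.

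**Figure D3:**
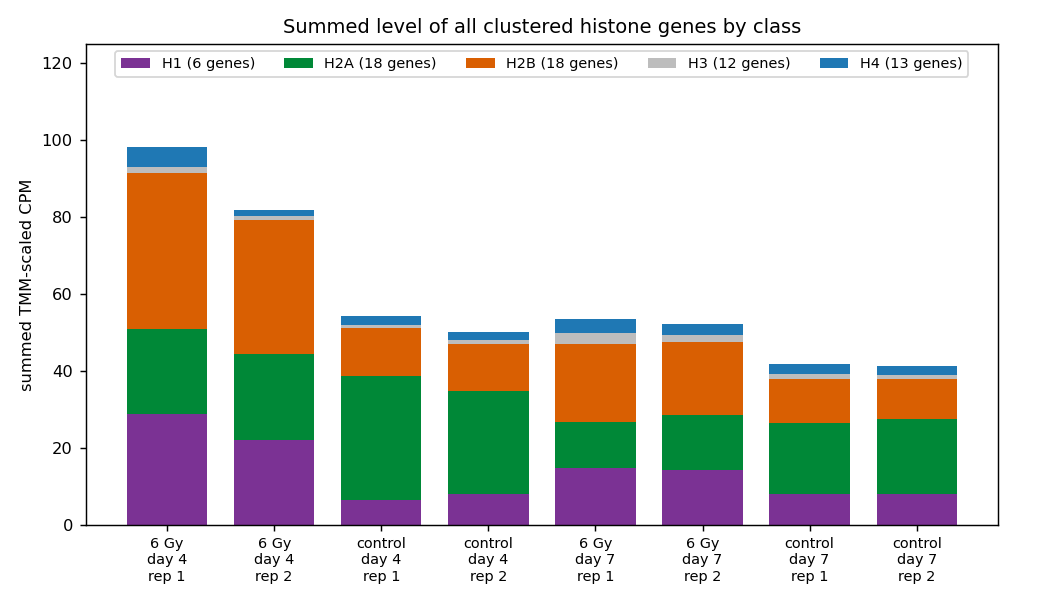
Summed level of all 67 clustered histone genes in TMM-scaled CPM (vertical axis, from 0) in each of the 8 libraries, stacked by histone class, with irradiated (6 Gy) libraries left of control libraries at each day. The H1 and H2B segments are taller in irradiated than in control libraries at both days, the H2A segment is shorter, and H3 and H4 are thin in all 8.

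The irradiation effect differed between the days for 2 of the 13 genes, both with a lower effect at day 7, against 10.1% of all tested genes (4.6% higher and 5.51% lower). The effect on Hist1h2af was lower at day 7 by 1.18 ± 0.33 on the log2 scale (edgeR adjusted p = 0.0468), which is a larger fall. The effect on Hist1h2bc was lower at day 7 by 0.96 ± 0.27 (edgeR adjusted p = 0.0486), which is a smaller rise. Both calls lie close to the threshold and were lost with DESeq2, with limma-voom and in most fits without 1 library, where the adjusted p reached 0.172 for Hist1h2af and 0.234 for Hist1h2bc. Over all alternatives it reached 0.458 for Hist1h2af and 0.566 for Hist1h2bc. The difference for Hist1h1c was -0.82 ± 0.29 and was not called (adjusted p = 0.102).

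Between irradiated organoids of day 7 and of day 4, 3 of the 13 genes were lower and 0 higher, against 33.0% of all tested genes (14.7% higher and 18.3% lower). These were Hist1h2af (log2 fold change -1.91 ± 0.25, edgeR adjusted p = 0.000592), Hist1h2bc (-1.12 ± 0.17, adjusted p = 0.00122) and Hist1h1c (-0.79 ± 0.2, adjusted p = 0.012). The call of Hist1h1c was lost without irradiated day 4 replicate 1 or either irradiated day 7 library (adjusted p up to 0.105, and up to 0.47 over all alternatives). In control organoids 0 of the 13 genes were called between day 7 and day 4, against 2.72% of all tested genes by edgeR (1.25% higher and 1.46% lower). DESeq2 and limma-voom called 0 as well, and 2 of the 13, Hist1h2af and Hist1h2ao, had an unadjusted p under 0.05 (log2 fold changes -0.73 ± 0.2 and -0.66 ± 0.19, edgeR adjusted p = 0.0881 and 0.0924). The comparisons between days share their libraries with those between irradiated and control organoids.

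Genes that copy DNA in S phase were mostly lower after irradiation at day 4. Of 25 S phase and DNA replication genes 0 rose and 20 fell at day 4, with a median log2 fold change of -0.53, against a median of 0.0 over all tested genes. At day 7 0 of the 25 were called, with a median of 0.04. For this list and those below, the shares of all tested genes called at day 4 were 20.0% higher and 16.5% lower. The shares at day 7 were 4.7% higher and 3.95% lower. Cdk2, the S phase kinase, had 28.8 and 22.3 CPM in irradiated and 43.9 and 46.2 CPM in control day 4 libraries (log2 fold change -0.82, edgeR adjusted p = 0.000757). Mcm6, a subunit of the replicative helicase, had 124.0 and 93.4 CPM in irradiated and 172.0 and 177.0 CPM in control day 4 libraries (-0.69, adjusted p = 0.00117). Pola1, the catalytic subunit of the polymerase that starts each strand, fell as well (-0.59, adjusted p = 0.000758), while the helicase subunit Mcm2 was not called (-0.27, adjusted p = 0.119).

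Relative to the mean of the day 4 controls, the 25 S phase genes together stood at 0.788 and 0.622 in irradiated day 4 libraries, against 0.999 and 1.0 in control day 4 libraries. In day 7 libraries they stood at 1.1 and 1.12 in irradiated organoids, against 1.08 in both controls. On the same scale Hist1h2af stood at 0.705 and 0.507 in irradiated day 4 libraries, against 1.12 and 0.883 in control day 4 libraries. In day 7 libraries it stood at 0.156 and 0.166 in irradiated organoids, against 0.598 and 0.608 in controls. In irradiated organoids Hist1h2af was thus lower, and 22 of the 25 S phase genes were higher, at day 7 than at day 4. Of all tested genes 14.7% were called higher and 18.3% lower in this comparison. Hist1h2bc stood at 5.07 and 4.41 in irradiated day 4 libraries, against 0.994 and 1.01 in control day 4 libraries.

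**Figure D4:**
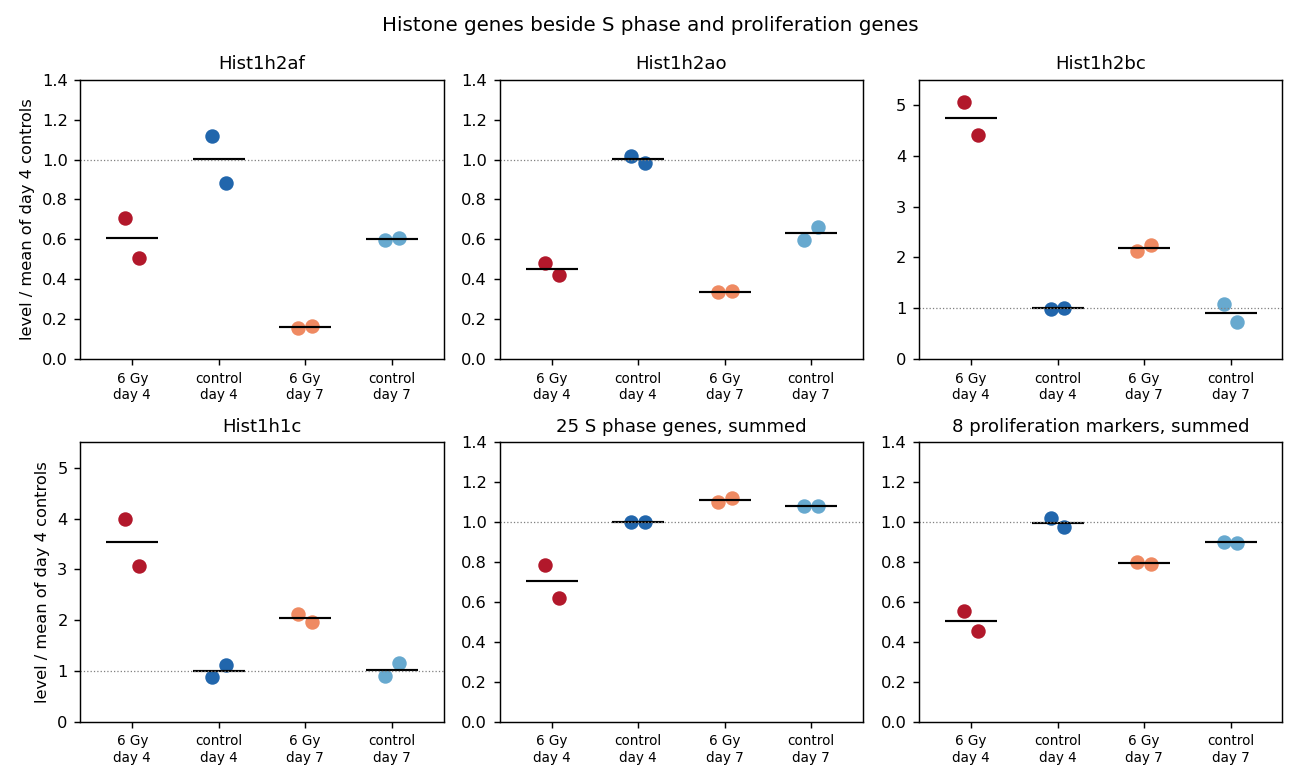
Level of Hist1h2af, Hist1h2ao, Hist1h2bc and Hist1h1c and the summed level of 25 S phase genes and 8 proliferation markers, each divided by its mean in control day 4 libraries (vertical axis, from 0, dotted line at 1), in the 2 libraries (points) and as their mean (line) of the 4 groups. In irradiated day 7 libraries the S phase genes stand at 1.1 and 1.12 and Hist1h2af at 0.156 and 0.166.

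Genes of histone variants lie outside the clusters and mostly give polyadenylated mRNA outside S phase as well, while H2afx is also known to give a stem-loop mRNA without a tail. They were mostly lower at day 4. Of 9 tested, 1 rose and 6 fell (median log2 fold change -0.57), and 0 were called at day 7, with a median of 0.13. Cenpa, the H3 variant of centromeres, fell by 0.95 on the log2 scale (edgeR adjusted p = 0.000206) and H1f0, the linker histone of resting cells, by 0.62 (0.000331). H2afz, which encodes H2A.Z of gene starts, fell by 0.58 (0.000634) and H2afx, which encodes H2A.X, phosphorylated at DNA breaks, by 0.68 (0.00489). H3f3a and H3f3b both encode the H3.3 used outside replication. H3f3a fell by 0.34 (0.00612), while H3f3b had a log2 fold change of 0.0 (adjusted p = 0.972), and H2afy, which encodes macroH2A1, was not called (-0.21, adjusted p = 0.104). The single gene that rose was H2afj, an H2A variant (0.54 ± 0.14, edgeR adjusted p = 0.0124), which is named here after its value was seen.

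A list of 23 measured genes for histone mRNA transcription, cutting or decay also held general poly-A factors such as Fip1l1. Of these 23, 0 rose and 7 fell at day 4, with a median log2 fold change of -0.24. Slbp, whose product binds the stem-loop, had 52.4 and 54.4 CPM in irradiated and 76.3 and 74.6 CPM in control day 4 libraries (log2 fold change -0.5 ± 0.09, edgeR adjusted p = 0.00184). Slbp had 68.2 and 60.6 CPM in irradiated and 74.2 and 71.6 CPM in control day 7 libraries and was not called there (adjusted p = 0.246). Npat, the co-activator of histone genes in S phase, was called at neither day (-0.28, adjusted p = 0.0908 at day 4; -0.33, adjusted p = 0.117 at day 7). Eri1, an exonuclease that trims and degrades histone mRNA ends, fell at day 4 (-0.52, adjusted p = 0.00765), as did the poly-A factor Fip1l1 (-0.32, adjusted p = 0.00975), while Cpsf1, a subunit of the cleavage and polyadenylation complex, was not called (-0.24, adjusted p = 0.0503). At day 7, 1 of the 23 fell. It was Hinfp, the factor that binds promoters of H4 genes (-0.49 ± 0.12, edgeR adjusted p = 0.0356), named after its value was seen.

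Histone chaperones, which carry histones to DNA, were mostly lower at day 4. Of 20 genes 0 rose and 12 fell (median log2 fold change -0.4), and 1 fell at day 7. Rbbp7, a subunit of several complexes, had 248.0 and 282.0 CPM in irradiated and 527.0 and 726.0 CPM in control day 4 libraries (-1.24, edgeR adjusted p = 0.000168). Hjurp, the chaperone of Cenpa, fell by 0.86 (7.38e-05) and Hat1, which acetylates new H4, by 0.72 (0.0003), while the histone importer Ipo4 was not called (0.25, adjusted p = 0.114). The gene that fell at day 7 was Atrx, which works with Daxx to deposit H3.3 (-0.63 ± 0.08, adjusted p = 0.0016), named after its value was seen.

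Markers of differentiated and of dividing cells also differed between irradiated and control organoids at day 4. The 12 enterocyte markers were all called higher (median 3.02 on the log2 scale), and their summed level was 11900 and 19400 CPM in irradiated and 3610 and 3290 CPM in control day 4 libraries. Of 8 proliferation markers 7 fell and 1 was not called. At day 7, 5 of the 12 enterocyte markers rose and 1 of the 8 proliferation markers, Mki67, fell (-0.36 ± 0.09, edgeR adjusted p = 0.0369, named after its value was seen). The part of these cell types in the histone values was not tested.

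Other RNAs that lack a poly-A tail were scarce. Of 19 such RNAs 16 were in the table and 8 of these were at 0 in all libraries. They summed to 0.817 and 1.69 CPM in irradiated and 0.995 and 1.58 CPM in control day 4 libraries, and to 5.0 and 4.09 CPM in irradiated and 4.62 and 2.11 CPM in control day 7 libraries. The groups overlapped at both days, and the part of such RNAs in the histone values was not tested. Between irradiated organoids of day 7 and day 4 both tested RNAs of this kind rose, namely Rmrp (4.96 ± 1.1, edgeR adjusted p = 0.00743) and Rpph1 (3.27 ± 0.68, adjusted p = 0.00543), named after their values were seen.

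Of 8 immune markers, 4 were tested and 3 rose at day 4, namely Csf1r, Lyz2 and Itgam. All 8 summed to 10.7 and 12.5 CPM in irradiated and 4.44 and 6.32 CPM in control day 4 libraries, and over all 8 libraries Itgam had 277 counts, Cd68 181, Lyz2 66, Csf1r 51, Cd79a 7, Ptprc 6 and Cd3e 2. The 8 mesenchymal markers summed to 18.3 and 20.3 CPM in irradiated and 16.7 and 15.7 CPM in control day 4 libraries, with 884 counts of Vim, 54 of Col1a1, 10 each of Pdgfra and Acta2, 5 of Col1a2, 2 of Col3a1 and 1 each of Dcn and Lum in all. The 6 endothelial markers summed to 3.63 and 6.33 CPM in irradiated and 3.99 and 4.57 CPM in control day 4 libraries, where Tek rose and Egfl7 fell among 3 tested. Egfl7 had 142 counts in all libraries, Pecam1 65, Vwf 53 and Tek 50, and Cdh5 and Kdr had 0. Csf1r, Lyz2, Itgam, Tek and Egfl7 are named as called after their values were seen. The part of such cells in the histone values was not tested.

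Promoters are shown for 2 H1 genes, Hist1h1c and Hist1h1e, and 2 H2A genes, Hist1h2af and Hist1h2ao. RefSeq promoters on GRCm38.p6, from 250 bases before to 50 after the annotated start, were given for 11 of the 13 genes and not for Hist1h2bc and Hist2h2be. Both strands were searched for 5 motifs of histone promoters, which stand in capitals below. They are the TATA box TATAAA, the CCAAT box, the octamer ATTTGCAT, the H1 box AAACACA and the E2F site TTTCGCGC. Hist1h1c lies at chr13:23738557-23738856 on the plus strand, Hist1h1e at chr13:23622509-23622808 on the minus strand, Hist1h2af at chr13:23533625-23533924 on the plus strand and Hist1h2ao at chr13:21810117-21810416 on the plus strand.
Hist1h1c: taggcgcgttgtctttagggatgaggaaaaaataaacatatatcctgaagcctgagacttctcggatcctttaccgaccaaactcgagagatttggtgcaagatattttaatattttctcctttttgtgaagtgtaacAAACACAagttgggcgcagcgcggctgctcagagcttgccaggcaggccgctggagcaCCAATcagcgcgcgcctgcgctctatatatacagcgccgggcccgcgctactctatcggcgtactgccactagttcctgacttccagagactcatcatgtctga
Hist1h1e: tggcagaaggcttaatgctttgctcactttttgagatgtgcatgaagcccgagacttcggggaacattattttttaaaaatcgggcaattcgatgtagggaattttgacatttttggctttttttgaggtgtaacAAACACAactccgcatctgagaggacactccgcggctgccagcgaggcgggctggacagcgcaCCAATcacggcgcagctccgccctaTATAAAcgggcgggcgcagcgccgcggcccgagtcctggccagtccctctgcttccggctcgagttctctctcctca
Hist1h2af: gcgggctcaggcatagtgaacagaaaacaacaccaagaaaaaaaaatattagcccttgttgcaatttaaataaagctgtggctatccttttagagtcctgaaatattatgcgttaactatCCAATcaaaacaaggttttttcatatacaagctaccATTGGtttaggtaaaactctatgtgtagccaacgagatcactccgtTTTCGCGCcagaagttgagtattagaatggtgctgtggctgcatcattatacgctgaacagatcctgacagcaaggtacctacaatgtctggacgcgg
Hist1h2ao: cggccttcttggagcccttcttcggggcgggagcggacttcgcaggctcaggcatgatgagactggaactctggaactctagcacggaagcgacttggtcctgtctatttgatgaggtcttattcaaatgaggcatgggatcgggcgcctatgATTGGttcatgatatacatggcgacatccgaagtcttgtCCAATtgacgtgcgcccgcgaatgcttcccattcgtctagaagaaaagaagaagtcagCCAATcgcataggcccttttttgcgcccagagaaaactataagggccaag

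The H1 box was found in all 3 H1 genes of the 13 and in 5 of all 6 H1 genes, against 7.1% of 27025 promoters of the genome. It was found in 6 of the 50 promoters of the other clustered histone genes, among them 2 of H2A and 2 of H2B genes. CCAAT was found in 10 of the 11 promoters and in 42 of the 50 promoters of the other clustered histone genes, against 37.9% of all. TATAAA was found in 3 of the 11 and in 32 of the 50, against 14.2% of all promoters, and ATTTGCAT in 1 of the 11 and 12 of the 50, against 1.8%. TTTCGCGC was found in 1 of the 11, Hist1h2af, and in 8 of the 50, against 0.3%. Of the 11 promoters, only those of the H1 genes hold the H1 box. Hist2h2aa2, Hist1h2be, Hist1h2af, Hist1h2ao, Hist3h2a, Hist1h2bq and Hist1h2br hold CCAAT without it. The part of these motifs in the histone values was not tested. A match is a description of the letters and not evidence of binding.

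The genes also lie close together. Of the 13, 10 are on chromosome 13, 2 on chromosome 3 and 1 on chromosome 11. There were 12 pairs of clustered histone genes transcribed away from each other with at most 500 bases between their starts. Hist1h2ao and Hist1h2bq form such a pair with 268 bases between them, and their copies Hist1h2ap and Hist1h2br form another with 236. Hist1h2ao was lower at day 4, but it shares most of its sequence with other genes. Hist1h2bq cannot be read apart from Hist1h2br. The sum of Hist1h2bq and Hist1h2br was 2.95 and 1.76 CPM in irradiated and 1.0 and 1.13 CPM in control day 4 libraries, and was not tested. Hist1h2bc lies 251 bases from Hist1h2ac, whose counts stayed between 0 and 7.46 in all libraries, while Hist1h2bc had 47.64 to 283.15 counts.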

How the data were processed

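The data deposited by the authors are 2 tables of gene by library, 1 of expected counts and 1 of TPM, as seen per the file headers. A directional kit was used on poly-A selected RNA, per the labels' protocols. The submitters' processing notes name STAR 2.7.3a and RSEM 1.3.3, beside FastQC and Trim Galore, as tools, and GRCm39 as well as mm10 as builds without saying which served where. Which annotation and strand setting went into the counting is not given in the sources used here. Antisense reads may thus be included.

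Gene IDs were matched exactly to GENCODE M21, which gave a symbol for 52083 of 55416. Expected counts were rounded, which changed 11.45% of values. Genes were filtered with filterByExpr (minimum count 10, minimum total 15) and tested, after TMM scaling, with the two-sided, robust quasi-likelihood F-test of edgeR 4.0.16, where 1 model held the 4 group means of all 8 libraries, leaving 4 residual degrees of freedom. The p-values were then adjusted by the Benjamini-Hochberg method over 14063 genes, and a gene was called under 0.05. The method was tested on simulated data. The fit ran in R 4.3.3 with limma 3.58.1, and DESeq2 1.42.0 was an alternative. CPM values are TMM-scaled, and class sums use unrounded counts. Of the 104 values of the 13 genes 23 were whole within 0.001, so most include shared reads.

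The members and gene lists were chosen with earlier results of these data known. Named with all values are the 3 members of a class with the highest mean and the 2 with the smallest p. From each other list up to 3 called genes and 1 not called are named, and 6 others, such as Slbp, whatever their values. Of 25 listed processing genes 23 were matched. Alternatives were other scaling, filters, tools, units, a replicate block, leaving out each library, and library sizes that excluded mitochondrial transcripts.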

Additional observations from a re-analysis of the deposited data

Results flagged for a closer look

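The effect of irradiation differed between day 7 and day 4 in edgeR's test of that difference (adjusted p under 0.05) for 2 of the 13 clustered histone genes, 5 of 9 histone variants, 5 of 20 chaperones and 7 of 25 S phase genes. Of all tested genes 10.1% were called in this test, 4.6% with a higher and 5.51% with a lower effect at day 7. Values are the effect at day 7 less the effect at day 4 on the log2 scale, for all of these but 5 of the S phase genes. Among clustered histone genes it was -1.18 for Hist1h2af (adjusted p = 0.0468) and -0.96 for Hist1h2bc (adjusted p = 0.0486). Among histone variants it was 1.03 for H2afx, 0.7 for H2afz, 0.93 for Cenpa, 0.5 for H1f0 and 0.74 for H2afv. Among chaperones it was 0.96 for Hjurp, 0.94 for Rbbp7, 0.63 for Hat1, 0.77 for Asf1b and 0.6 for Chaf1a. Of the 7 S phase genes, Cdk2 had 0.7 and Mcm6 0.68. H2afv, Asf1b and Chaf1a are named after their values were seen.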

How the results depend on the processing

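Of 31 results for single genes, 9 kept their call in every alternative in which they were tested and 0 changed direction. Among clustered histone genes these included the day 4 calls of Hist1h1c, Hist1h2ao and Hist1h2bc, and the call of Hist1h2af between irradiated organoids of day 7 and day 4. Also among the 9 was the day 4 call of Hist2h2aa2, which was not tested with at least 5 CPM in 2 libraries. Its irradiated libraries admitted Hist2h2aa2, so nothing is read from that call. At day 4 the 5 genes called higher became 2 with at least 5 CPM in 2 libraries, where only 4 of the 13 were tested, and 3 with log2(TPM + 1), log2(TPM + 0.1) or TPM without a filter. The 2 called lower became 1 with DESeq2, with TPM without a filter and with only the groups compared. Of all genes, DESeq2 called 2140 higher and 1678 lower at day 4. Only the groups compared gave 1830 and 1328, and TPM without a filter 785 and 649. At day 7 the 3 called higher became 1 with log2(TPM + 0.1) and 0 with TPM without a filter. The 2 called lower became 1 with DESeq2, limma-voom, log2(TPM + 1) and log2(TPM + 0.1), and 0 with TPM without a filter. Calls over all genes also became fewer in these fits at day 7. TPM without a filter called 38 higher and 6 lower of 30697 genes, against 661 and 555 of 14063 in the fit of counts. The fit of log2(TPM + 0.1) called 313 and 76 of 14389, DESeq2 530 and 352 and limma-voom 481 and 374. The 2 genes with a lower effect at day 7 became 1 with DESeq2 size factors and 0 with DESeq2, limma-voom and the 3 TPM fits. For this difference TPM without a filter called 2 genes higher and 2 lower of all genes, against 647 and 775 in the fit of counts. The fit of log2(TPM + 1) called 184 and 124 and that of log2(TPM + 0.1) 210 and 128. DESeq2 size factors gave 716 and 729, DESeq2 512 and 617 and limma-voom 587 and 649. Between control days 1 gene was lower without a filter, and between irradiated days 1, not 3, with log2(TPM + 0.1) and TPM without a filter. The cause of these changes was not tested. Leaving out 1 library gave 3 to 5 higher and 1 to 2 lower at day 4, and 0 to 3 higher and 0 to 2 lower at day 7. It gave 0 to 3 for the difference of effects, 0 to 2 lower between control days and 2 to 4 lower between irradiated days. A group left with 1 library was assumed to vary like the others.

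The log2 ratio of the summed 13 genes at day 4 was 0.81 in CPM and -0.06 in TPM, and that of H2A was -0.43 in CPM and -0.85 in TPM. At day 7 the ratio of all 13 was 0.29, against 0.39 without TMM, -0.16 in TPM and 0.21 for the 6 genes with 10 counts in all libraries. The H1 ratio of day 7 was 0.88, against 0.98 without TMM, 1.09 in TPM and 0.99 for Hist1h1c, the only H1 gene among the 6. The H2A ratio of day 7 was -0.66, against -0.91 in TPM, -0.55 over all 18 H2A genes and -0.88 for the 3 H2A genes among the 6. The H2B ratio of day 7 was 0.89, against 0.99 without TMM and 1.22 in TPM. Over all genes the fit of log2(TPM + 1) called 1104 higher and 1732 lower at day 4, against 2808 and 2322 in the fit of counts, and 316 and 71 at day 7, against 661 and 555. It moved the median of all genes by -0.17 at day 4 and 0.12 at day 7.

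With the replicate number as a block the counts of clustered histone genes were 5 higher and 2 lower at day 4 and 3 and 2 at day 7. The block gave 0 and 2 for the difference, 0 and 0 between control days and 0 and 3 between irradiated days, as without it. Deviations of same-numbered libraries had correlations of -0.0355 to 0.0581, so no strong shared effect of the replicate number was seen. The labels state no pairing, and these correlations cannot tell whether same-numbered libraries had a common origin. Depth limits what can be said of H3 and H4, where 0 of 12 and 1 of 13 genes met the count threshold.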
